A study of Mus musculus with 23 samples.

Results

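Osteoglycin (Ogn), decorin (Dcn), lumican (Lum), the collagen I chains Col1a1 and Col1a2, insulin-like growth factor 2 (Igf2), the organic anion transporter Slc22a6 and prostaglandin D synthase (Ptgds) form a set of 8 genes of the meninges and of fibroblast matrix. They were followed here among the 22180 genes measured on whole-transcript microarrays of the mouse nucleus accumbens. The 8 genes were selected on these same arrays, as genes of the brain coverings whose levels differed between mice, and each was read from the probe set that carries its symbol alone. All 8 had such a probe set. Col1a2 had a pair of them, of which the brighter was used. Because the values themselves chose the set, their ranges and their common movement are given as a description, without a test.

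The nucleus accumbens is the ventral part of the striatum, a region of reward and motivation. It was micropunched from 23 C57BL/6J mice (C57BL/6 in the strain label) about 15 weeks old, 1 array per mouse, and the series calls all samples biological replicates. About 5 weeks earlier an adeno-associated virus (AAV) had been injected there, carrying a short hairpin RNA against Nr1d1, which encodes the clock repressor REV-ERBα, or a scrambled hairpin, so that the controls too had received an injection and a virus. The sources used here give neither the vector's promoter nor the cells it reached. Among the females, 5 were controls and 6 carried the Nr1d1 hairpin, and among the males 6 and 6. The labels' treatment text speaks of collection on a postpartum day for males as well as females, so the reproductive state was not used. All values are the deposited log2 intensities.

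Facts of the whole data set bear on every value. Array medians lay between 6.11 and 6.17 in females and between 5.84 and 5.88 in males, so the sexes appear to have been normalized apart and their levels are not compared. Xist stood at 11.40 to 11.78 in females and 3.85 to 4.12 in males, in keeping with the sex labels of all 23 arrays. Nr1d1 itself differed between knockdown and control by −0.05 in females (SE 0.09, limma adjusted p = 0.963) and by −0.01 in males (SE 0.09, adjusted p = 0.997). No fall of the target was detectable, and the arrays are called labelled knockdown. The medium spiny neuron gene Drd2, which marks striatal tissue, stood at 11.40 to 11.76 in females and 10.80 to 11.52 in males. The number of arrays limits the precision.

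In the brain, fibroblasts are found mainly in the leptomeninges, the thin membranes on its surface, and in the sheaths of larger penetrating vessels. They secrete collagen I fibrils and the small leucine-rich proteoglycans (SLRPs) that bind them, among them decorin, lumican and osteoglycin. The leptomeninges also make Igf2, a growth factor that is imprinted in most tissues. Their barrier cells carry solute transporters such as Slc22a6, also called OAT1, and release Ptgds, which makes prostaglandin D2 and is abundant in cerebrospinal fluid. Ptgds is made by oligodendrocytes and the choroid plexus as well. In a bulk sample, fewer cells of a type and less RNA per cell cannot be told apart.

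Among the SLRPs, Ogn differed most between mice. In the 5 control females Ogn stood at 5.61, 7.98, 6.47, 7.08 and 6.94 (replicates 1 to 5), a 5.17-fold range between mice of the same group. The female arrays labelled knockdown ran from 5.86 through a median of 6.14 to 7.78. The groups overlapped, and replicate 4 of the knockdown females stood alone at the top of its group, below control replicate 2. In males Ogn ran from 6.16 through 7.14 to 7.72 in controls. In males labelled knockdown it ran from 6.07 through 6.63 to 8.38, a 4.96-fold range, and replicate 1 held the highest Ogn value of all male arrays. The control and knockdown males overlapped over most of their range.

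Dcn, which binds collagen fibrils and the growth factor TGF-β, stood at 7.23, 8.07, 7.57, 7.66 and 7.79 in control females. It ran from 6.97 through 7.26 to 8.30 in females labelled knockdown, from 6.93 through 7.59 to 7.90 in control males and from 6.85 through 7.05 to 8.60 in males labelled knockdown. Both knockdown groups had 1 array well above the rest, the same array as for Ogn, and both overlapped their controls. Lum, which shapes collagen fibril spacing in the cornea and other tissues, stood at only 4.32 to 4.73 over the female arrays and 3.79 to 4.54 over the male arrays. The lower quartiles of the arrays were 4.77 to 4.84 in females and 4.50 to 4.56 in males, so that nearly all Lum values lay among the dimmest probe sets.

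The collagen chains varied little. Col1a1 stood at 6.91, 7.12, 6.95, 6.93 and 6.93 in control females, and ran from 6.87 through 7.09 to 7.10 in females labelled knockdown. In males it ran from 6.63 through 6.88 to 6.97 in controls and from 6.57 through 6.75 to 7.03 in the arrays labelled knockdown. Col1a2, which joins Col1a1 in the collagen I triple helix, stood at 6.37, 6.73, 6.52, 6.55 and 6.62 in control females and ran from 6.15 through 6.46 to 6.56 in the females labelled knockdown. It ran from 6.19 through 6.30 to 6.44 in control males and from 6.26 through 6.35 to 6.47 in males labelled knockdown. Control and knockdown arrays overlapped for both chains in both sexes. The second Col1a2 probe set, at a mean of 4.04, correlated with the one used at r = 0.48 over the 23 arrays.

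The secreted factor, the transporter and the enzyme varied more than the collagen chains. Igf2 stood at 7.82, 8.50, 8.07, 8.19 and 8.18 in control females, ran from 7.80 through 8.16 to 8.66 in females labelled knockdown, from 7.34 through 7.72 to 7.81 in control males and from 7.31 through 7.46 to 7.96 in males labelled knockdown. Slc22a6 stood at 6.01, 6.89, 6.57, 6.47 and 6.51 in control females. It ran from 6.14 through 6.26 to 6.43 in females labelled knockdown, from 5.86 through 6.18 to 6.48 in control males and from 5.66 through 5.95 to 6.45 in males labelled knockdown. The knockdown females lay inside the range of their controls, a range set by control replicates 1 and 2.

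Ptgds stood at 10.26, 11.84, 10.68, 11.22 and 11.26 in control females, a 2.99-fold range. It ran from 10.30 through 10.59 to 11.05 in females labelled knockdown, and 3 of the 5 control females lay above all of them. In males Ptgds ran from 10.54 through 11.07 to 11.43 in controls and from 10.49 through 10.92 to 11.18 in the arrays labelled knockdown, with broad overlap.

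**Figure D1:**
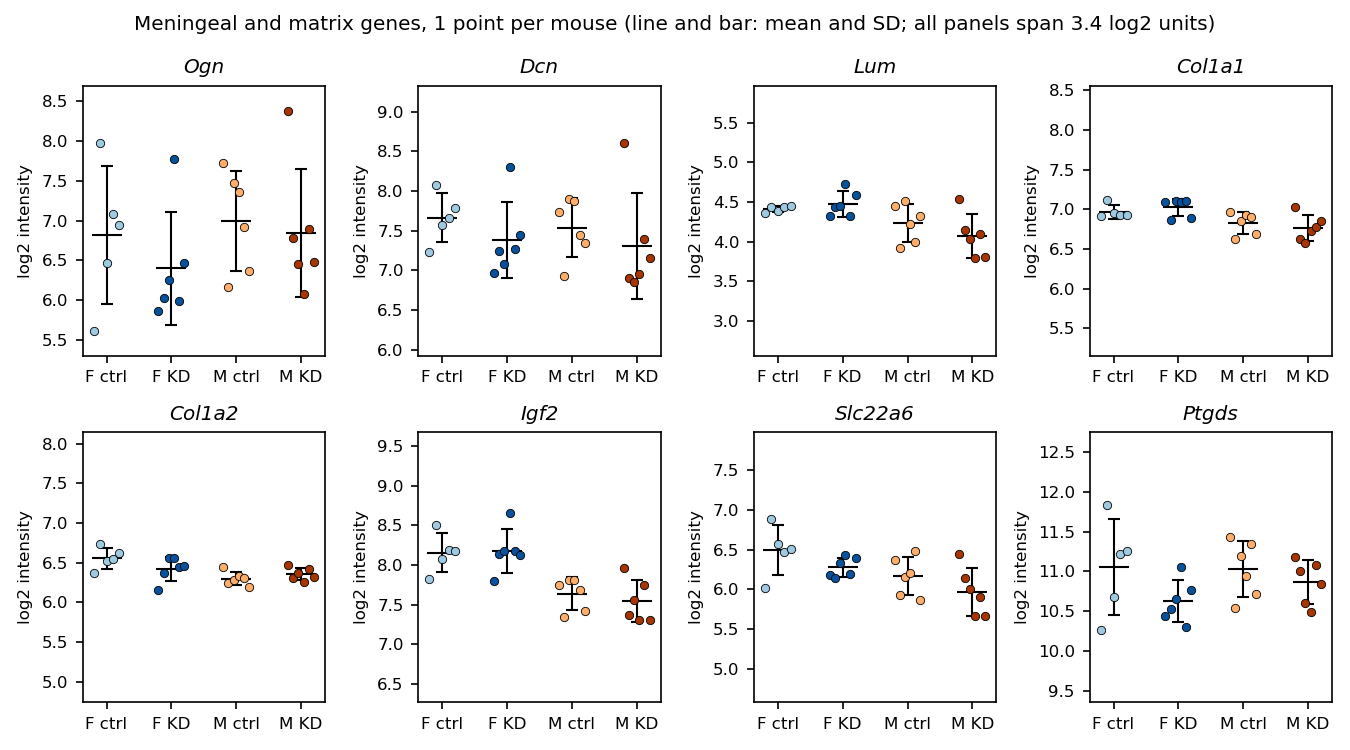
Log2 intensity of the 8 genes (vertical axes, each panel spanning the same number of log2 units) in female (F) and male (M) controls (ctrl) and arrays labelled knockdown (KD), 1 point per mouse, with the mean and SD of each group. Ogn and Dcn spread widely, with 1 high array in each knockdown group, while Col1a1 and Col1a2 stay close to their group means and control and knockdown overlap in every panel.

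The spread between mice of the same group, pooled within each sex, was set against that of all 22180 genes. Ogn had an SD of 0.785 in females and 0.724 in males, rank 6 and rank 18 from the top, against a median SD over all genes of 0.109 in females and 0.123 in males. The SD of Dcn was 0.411 in females (rank 75) and 0.538 in males (rank 53). Without male knockdown replicate 1 the male value was 0.315, so a large part of it came from that array, and without female knockdown replicate 4 the female value was 0.252. Ptgds had an SD of 0.448 in females (rank 54) and 0.318 in males (rank 354). The SD of Igf2 was 0.262 and 0.238, and that of Slc22a6 0.229 and 0.274, in females and males. The female value for Slc22a6 was 0.152 without control replicate 1. Lum varied as much as these in males (0.257), but only by 0.122 in females. Col1a1, at 0.101 in females and 0.152 in males, and Col1a2, at 0.144 and 0.081, were close to the typical gene. The set thus held some of the most variable transcripts on the arrays together with collagen chains that were not.

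The genes rose and fell in the same mice. In control females, replicate 1 had the lowest value of its group in 8 of the 8 genes and replicate 2 the highest in 7. In females labelled knockdown, replicate 4 was highest in 7 and replicate 1 lowest in 5. Control male replicate 2 was lowest in 6 and replicate 1 highest in 4. Among males labelled knockdown, replicate 1 was highest in 8 of the 8 and replicate 4 lowest in 6. Tied values count for each array that holds them. Among knockdown females, replicate 4 shared the highest Col1a2 with replicate 3, and replicate 1 the lowest Lum with replicate 5. Among knockdown males, replicate 4 shared the lowest Igf2 and Slc22a6 with replicate 6. High and low mice occurred in the control groups as well as in the knockdown groups.

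Within groups, the median correlation over the 28 pairs of genes was 0.73 in the 11 females and 0.73 in the 12 males. In females 27 of 28 pairs were above 0, from −0.10 to 0.93, and in males all 28 were, from 0.45 to 0.92. Ogn and Dcn correlated at 0.92 in both sexes. Ogn followed the mean of the other 7 genes at 0.97 in females and 0.98 in males, and Igf2 at 0.94 and 0.90. Ptgds did so at 0.87 and 0.80, although other cells of the punch also make it. Col1a1 stood apart in females, with a median of 0.36 over its 7 pairs and 0.33 with the mean of the other genes, while in males these values were 0.69 and 0.77. Its SD was among the smallest of the set, and the difference between the sexes was not tested. Without female knockdown replicate 4 and male knockdown replicate 1, the arrays farthest above their group mean, the median over pairs was 0.71 in females and 0.65 in males. Without the array farthest above the mean in each of the 4 groups (female control replicate 2 and male control replicate 1 as well) it was 0.63 and 0.59. These points share an array each, and with it its normalization and the piece of tissue taken. The mean of the 8 genes correlated with the array median at −0.63 in females and 0.51 in males, over medians that differed by at most 0.06, and the part of this in the result was not tested.

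**Figure D2:**
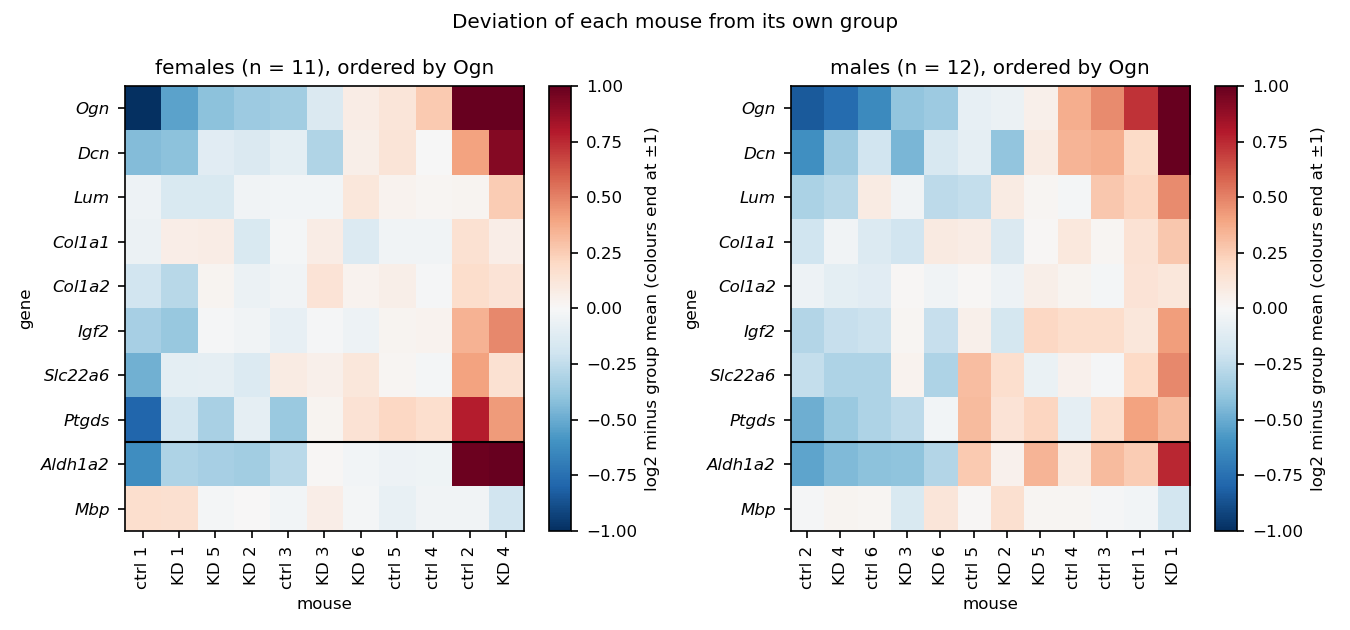
Deviation of each mouse from the mean of its own group, in log2 units (colour), for the 8 genes and, under the line, the meningeal gene Aldh1a2 and the myelin gene Mbp (vertical axis), with the mice of each sex ordered by Ogn (horizontal axis). Most of the 8 genes and Aldh1a2 turn from blue to red along the order of Ogn, and female KD 4 and male KD 1 stand at the red end.

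Since the members moved together, the promoters of those found in the RefSeq promoter table were examined. The table held 5 of the 8, Ogn, Col1a2, Slc22a6, Ptgds and Igf2 (the last with 4 starts). The 150 bases before the start (GRCm38.p6) are shown 5′ to 3′ on the gene's own strand for 4 members that have 1 start each. Windows of Aldh1a2 and Slc13a4, which are among the genes that follow the members closely, are added. Capitals mark the CCAAT motif, as written or as its reverse complement. The windows are chr13:49607865-49608014 (+) for Ogn, chr6:4505468-4505617 (+) for Col1a2, chr19:8617846-8617995 (+) for Slc22a6, chr2:25469750-25469899 (−) for Ptgds, chr9:71215639-71215788 (+) for Aldh1a2 and chr6:35308127-35308276 (−) for Slc13a4.
Ogn: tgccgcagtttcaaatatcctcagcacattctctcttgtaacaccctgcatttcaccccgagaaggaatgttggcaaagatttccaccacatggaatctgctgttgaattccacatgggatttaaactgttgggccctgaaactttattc
Col1a2: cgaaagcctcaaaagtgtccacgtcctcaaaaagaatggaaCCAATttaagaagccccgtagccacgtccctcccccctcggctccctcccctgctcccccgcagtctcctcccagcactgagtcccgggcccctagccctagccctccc
Slc22a6: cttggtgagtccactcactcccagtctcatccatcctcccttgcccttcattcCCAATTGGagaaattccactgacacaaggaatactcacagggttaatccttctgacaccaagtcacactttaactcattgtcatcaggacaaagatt
Ptgds: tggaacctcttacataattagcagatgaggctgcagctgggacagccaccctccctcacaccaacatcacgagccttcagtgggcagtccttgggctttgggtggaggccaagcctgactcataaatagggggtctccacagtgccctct
Aldh1a2: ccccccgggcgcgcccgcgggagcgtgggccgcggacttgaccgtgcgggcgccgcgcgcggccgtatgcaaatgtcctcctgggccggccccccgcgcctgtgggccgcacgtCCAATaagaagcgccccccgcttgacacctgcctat
Slc13a4: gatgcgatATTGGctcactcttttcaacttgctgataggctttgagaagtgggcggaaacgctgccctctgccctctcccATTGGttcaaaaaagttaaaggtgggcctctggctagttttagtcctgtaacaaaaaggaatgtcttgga

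Searched on both strands, CCAAT was found in Col1a2 at −109 to −105 from the start, in Slc22a6 at −97 to −93 and, overlapping it on the other strand, at −94 to −90, and not in the windows of Ogn and Ptgds. Aldh1a2 held it at −36 to −32 and Slc13a4 held 2 on the other strand, at −142 to −138 and −70 to −66. The windows of the 4 Igf2 starts, not shown, held no CCAAT. Nor did those of Slc6a20a and Fmod, which followed the members more closely than Slc13a4 by the lower of the female and male r. Of the other close followers in the promoter table, Efemp1, Emp3 and Aebp1 held none and H2-Aa held 1. Of all 32851 promoter windows of this length, 24.5% held CCAAT. The TATAAA motif was in none of the 6 windows shown, and 7.57% of all windows held it. The half-site that REV-ERBα and related nuclear receptors bind, AGGTCA, was in none of them either, and 8.58% of all windows held it. GGGCGG (28.6%) was, of the 6 windows shown, in that of Slc13a4 alone. Of the windows not shown, those of 2 of the 4 Igf2 starts, Slc6a20a and Efemp1 held it, and a window of Emp3 held TATAAA. No motif was found in all the windows.

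To see which other transcripts followed the same mice, each gene was correlated with the mean of the 8, each scaled to its own SD. Of the 22172 genes that are not in the set, 193 (0.87%) exceeded 0.5 in both sexes. The closest was Aldh1a2, the retinoic acid synthesising enzyme of the meninges, at 0.96 in females and 0.95 in males. It was followed by Slc6a20a, an imino acid transporter (0.94 and 0.97), Serping1, the C1 inhibitor of complement (0.94 and 0.97), Fmod, a further SLRP (0.94 and 0.92), and Slc13a4, a sulfate transporter (0.98 and 0.92). Fn1, fibronectin, had 0.92 and 0.89, H2-Aa, a chain of MHC class II, 0.89 and 0.89, and Efemp1, fibulin-3, 0.92 and 0.88. Emp3, a membrane protein, had 0.87 and 0.88 and Aebp1, a collagen-binding matrix protein, 0.87 and 0.93. As they were chosen for following the 8 genes, their extreme arrays follow in part from that choice. Female control replicate 2, female knockdown replicate 4 and male knockdown replicate 1 were highest of their groups in all 10, while in control males the highest value fell to replicate 1 in 6 genes and to replicates 3 and 4 in 2 each. Aldh1a2 ranged from 5.69 to 7.39 in females and from 5.81 to 7.00 in males.

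Lists of related genes showed which functions took part. Of 49 other meningeal and perivascular fibroblast genes, 20 (40.8%) exceeded 0.5 in both sexes, with a list median of 0.57 in females and 0.47 in males against 0.013 and −0.0047 over all genes. Lamc3, a laminin chain, went furthest the other way in females (−0.53, against 0.22 in males). Of 12 other SLRPs, 3 did so, Fmod, Bgn (biglycan, 0.92 and 0.86) and Omd (osteomodulin, 0.80 and 0.73). The genes next to the members within their families were mixed. Kera, which lies beside Lum, had 0.08 and 0.16 and Epyc 0.26 and −0.23. Beside Ogn, Aspn had 0.03 and 0.55, Ecm2 0.60 and 0.47 and Omd the 0.80 and 0.73 given above. Slc22a8, the OAT3 gene beside Slc22a6, had 0.83 and 0.73.

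Of 20 genes for the assembly of collagen I, 2 exceeded 0.5 in both sexes. They were Col3a1, the collagen III chain (0.68 and 0.81), and Pcolce, which aids cleavage of the procollagen end (0.60 and 0.70), while P4ha2, a prolyl hydroxylase, had 0.35 and −0.64. In the IGF system 2 of 14 did, Igfbp2 (0.78 and 0.83) and Igfbp7 (0.51 and 0.70), both IGF-binding proteins, and Igf2r, the receptor that clears Igf2, had 0.26 and −0.62. Of 14 transporters of the leptomeninges, 3 did, Slc13a4, Slc22a8 and the GABA and taurine transporter Slc6a13 (0.84 and 0.84), while Slco1a5, an organic anion transporter, had −0.58 and 0.64. Of 15 other genes of prostaglandin synthesis and signalling, 0 did. The closest were Ptger4, a prostaglandin E2 receptor (0.19 and 0.19), and Ptges (0.11 and 0.18). Hpgds, the other prostaglandin D synthase, had 0.27 and −0.52. The lists share genes, and Col3a1, Igfbp2, Slc13a4 and Slc6a13 were already counted among the meningeal and perivascular fibroblast genes.

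Markers of other cells that a punch could hold were examined in the same way. Of 12 oligodendrocyte and myelin genes, 0 exceeded 0.5 in both sexes, and their medians were −0.52 in females and −0.42 in males, with Mbp, a main protein of myelin, at −0.80 and −0.46, and the highest of them, Hapln2 and Opalin, at 0.13 and −0.09 and at −0.35 and −0.13. Ptgds itself correlated with Mbp at −0.64 in females and −0.06 in males, and with Aldh1a2 at 0.88 and 0.89. Of 16 choroid plexus and ependyma genes, 0 did (medians −0.18 and −0.01), and Ttr, transthyretin of the choroid plexus, had 0.13 and 0.37 with a range of 5.56 to 6.24 in females and 5.06 to 5.51 in males. Enkur, a gene of motile cilia, had 0.32 and 0.31, and Ccdc153 −0.66 and 0.33. Of 14 mural cell genes, 6 did, with medians of 0.21 and 0.54. They were Tagln (0.84 and 0.92), Myl9 (0.82 and 0.84), Acta2 (0.78 and 0.89), Myh11 (0.81 and 0.82), Cnn1 (0.69 and 0.78) and Pdgfrb (0.57 and 0.57), the first 5 of them genes of the contractile apparatus of smooth muscle and the last the receptor of mural cells for PDGF. Notch3, a receptor of mural cells, was lowest of the list, at −0.78 in females and 0.49 in males. Apart from Tagln, Myl9 and Notch3, these mural cell genes are named because they make up the count of 6.

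Of 15 endothelial genes, 2 exceeded 0.5 in both sexes, Vwf (0.63 and 0.75) and Cdh5 (0.79 and 0.56), with list medians of 0.16 and 0.15, while Esam, an adhesion molecule, had −0.46 and 0.47. Of 11 genes of border-associated macrophages, 0 did (medians 0.28 and 0.38), with Cbr2 at 0.41 and 0.72, Ms4a7 at 0.34 and 0.58 and Cd163, a haemoglobin scavenger receptor, at 0.42 and −0.21. Of 14 genes of scar and reactive gliosis, 3 did, Fn1, the intermediate filament gene Vim (0.76 and 0.88) and Gfap of reactive astrocytes (0.88 and 0.72, also named for the count), with medians of 0.36 and 0.34, while Timp1, an inhibitor of matrix proteases, had −0.41 and 0.47. Of 17 medium spiny neuron genes 0 did (medians −0.27 and 0.03), with Isl1 at 0.16 and 0.14, Pdyn at 0.04 and 0.15 and Drd2 at −0.61 and 0.06. Of 11 cortical projection neuron genes 0 did (medians 0.28 and −0.01), with Cux2 at 0.57 and 0.13, Rorb at 0.11 and 0.10 and Rasgrf2 at 0.03 and −0.49. The red blood cell gene Slc4a1, the 1 gene of its list with a probe set of its own, had 0.20 and 0.37, and of the 4 genes of the sex check 0 exceeded 0.5 in both sexes (Eif2s3y 0.20 and −0.10, Uty 0.28 and −0.43, Xist −0.59 and 0.16). All these correlations run across mice that share arrays and tissue pieces, and they have no test. The amount of meninges or vessel wall in each punch was not tested.

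**Figure D3:**
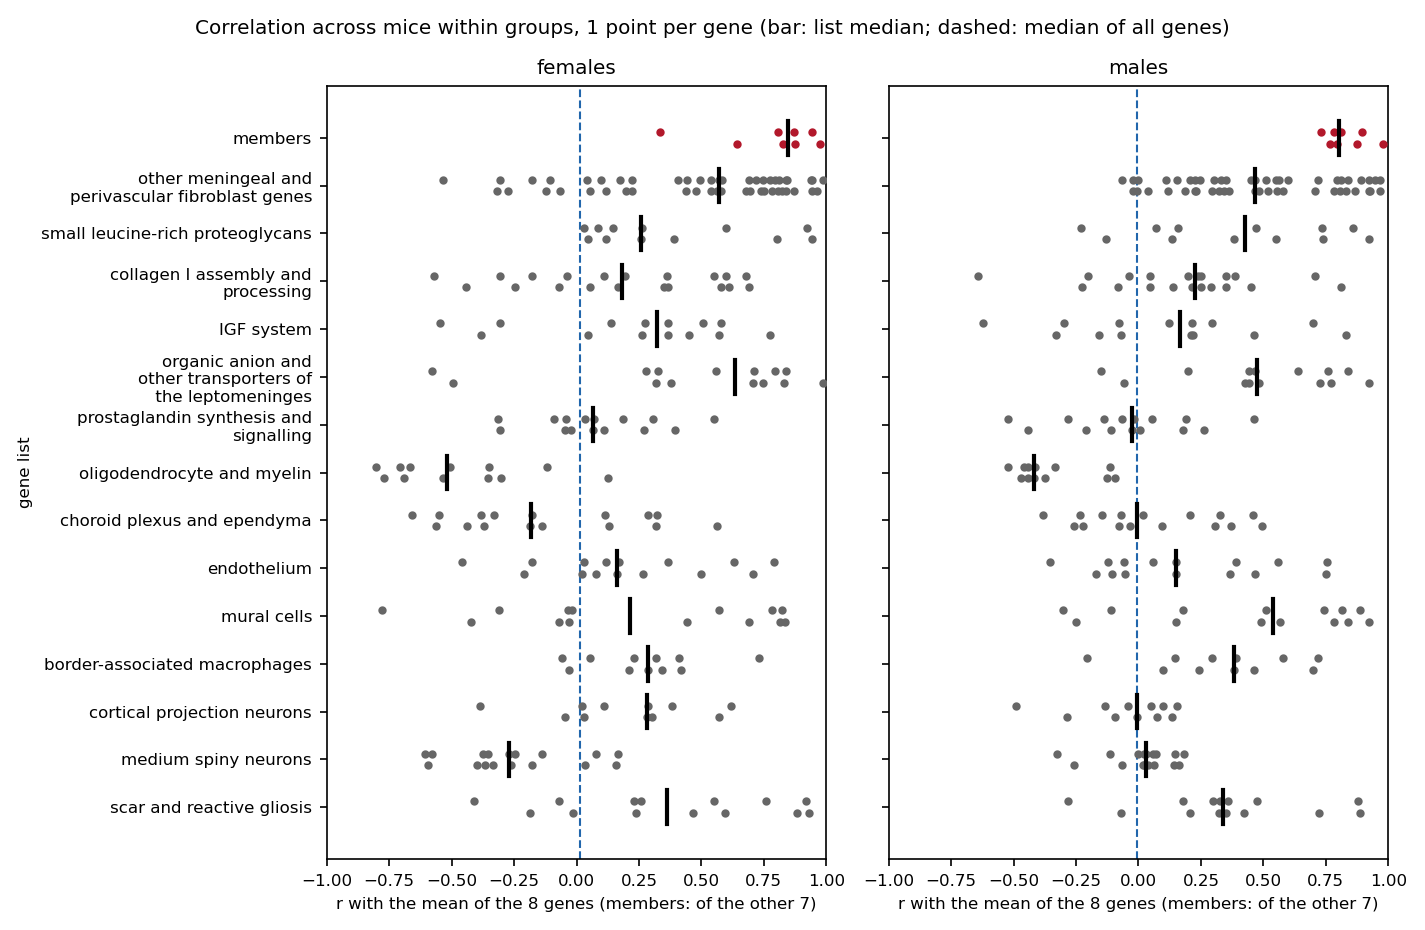
Correlation across mice, within groups, of each gene with the mean of the 8 genes (horizontal axis, 1 point per gene, the 8 members in red set against the mean of the other 7) for each gene list (vertical axis), in females and males, with the list median as a bar and the median of all genes as a dashed line. Fibroblast genes and leptomeningeal transporters lie mainly to the right, and myelin genes to the left. Genes of the SLRP, border-associated macrophage and scar and reactive gliosis lists also lie mainly to the right, as do mural cell genes in males.

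Slc17a7 (VGLUT1), the vesicular glutamate transporter of cortical projection neurons, is low in striatal neurons and serves as a marker of cortical tissue. It ran from 8.92 to 11.13 in females. In males it fell into separate ranges, with 4 arrays at 4.64 to 6.17 and 8 at 8.01 to 10.34. Within groups, the correlation of the 8 genes with Slc17a7 lay between 0.14 and 0.59 in females (Spearman's rho 0.05 to 0.49) and between −0.10 and 0.41 in males (rho −0.20 to 0.35). None passed after adjustment over the 16 relations (2-sided permutation within groups). The smallest adjusted p was 0.765, for Slc22a6 in females (r = 0.59, permutation p = 0.0478, rho = 0.49), and 0.839 in males. Without the 2 arrays farthest from the median of Slc17a7, r ran from −0.38 to 0.24 in females and from −0.41 to 0.17 in males, and that of Slc22a6 in females was 0.06. Since the male arrays form separate ranges, the pooled male value is no measure of a common relation, and within the 8 arrays of the higher range r ran from −0.41 to −0.07. A relation of the 8 genes to Slc17a7 was not detectable with these numbers of arrays. Female control replicate 1 was lowest of its group in Slc17a7 (9.40) and in all 8 genes, and female knockdown replicate 2, with the lowest Slc17a7 (8.92), had an Ogn of 6.03. The highest Slc17a7 of the female groups, 11.05 in control replicate 3 and 11.13 in knockdown replicate 3, came with an Ogn of 6.47 and 6.25.

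**Figure D4:**
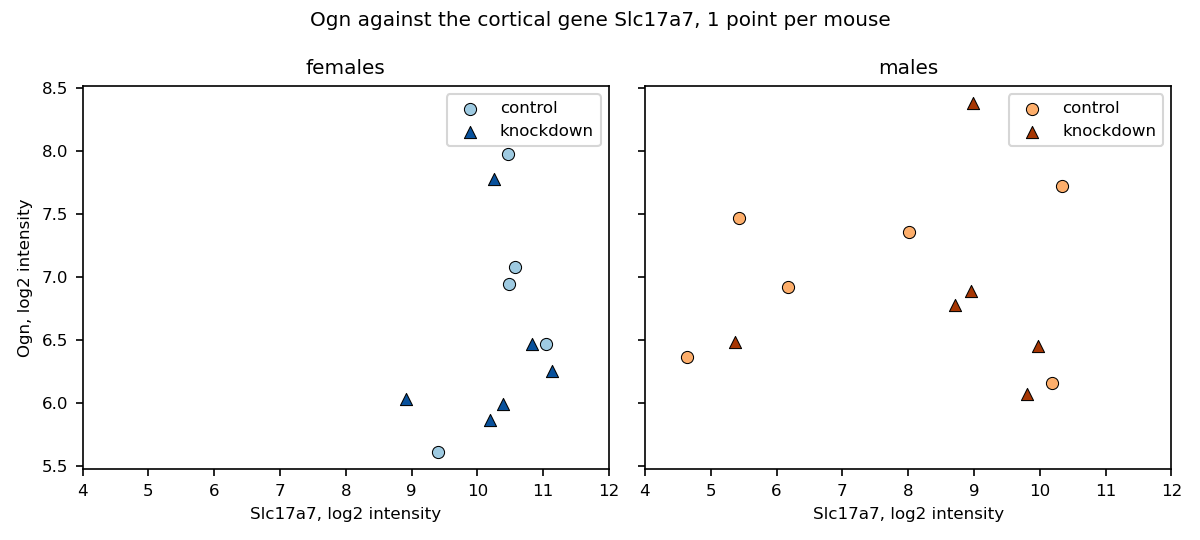
Ogn (vertical axis) against Slc17a7 (horizontal axis), both as log2 intensity, 1 point per mouse, circles for controls and triangles for arrays labelled knockdown. In females the 2 arrays with the lowest Slc17a7 (8.92 and 9.40) have low Ogn (6.03 and 5.61) and the rest spread over Ogn, and in males Ogn takes low and high values at each end of the Slc17a7 range.

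The last comparison asks whether the 8 genes differ between arrays labelled knockdown and controls. Over all 41345 probe sets, limma called 0 (0%) in females, 0 (0%) in males and 0 (0%) for the difference of the male and female effects. Unadjusted p values under 0.05 numbered 2423 (5.86%), 1948 (4.71%) and 2358 (5.70%). Of the 8 genes, 0 were called in females, in males or for the difference, the same share as the background. In females 5 of the 8 were lower in the arrays labelled knockdown and in males 7 of the 8. As the genes move together, these counts are not 8 separate observations.

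In females Ptgds differed by −0.43 (SE 0.22, interval −0.88 to 0.02, limma adjusted p = 0.862), and Ogn by −0.42 (SE 0.42, interval −1.30 to 0.46, adjusted p = 0.935). Both values moved by over 1.5 times with single arrays left out. Without female control replicate 1 Ptgds differed by −0.63 (interval −1.05 to −0.21) and Ogn by −0.72, and without female control replicate 2 by −0.23 and −0.13. Without female knockdown replicate 4 Ogn differed by −0.70. The interval of Ptgds included 0, but not with array weights or with the replicate number as a block. It also excluded 0 without female control replicate 1 or 3, without female knockdown replicate 4, and without the 2 arrays farthest above their group mean. In none of these did Ptgds pass the adjustment over all probe sets (adjusted p from 0.596 to 0.898). Dcn differed by −0.28 (SE 0.27), Slc22a6 by −0.21 (SE 0.14), Col1a2 by −0.13 (SE 0.07), Igf2 by 0.03 (SE 0.14), Lum by 0.06 (SE 0.12) and Col1a1 by 0.06 (SE 0.08). The interval of Col1a2 also excluded 0 with quantile normalization (−0.298 to −0.000156), array weights (−0.32 to −0.03), the replicate block and without those 2 arrays. Its limma adjusted p in these fits ran from 0.538 to 0.997. With single arrays left out, Col1a2 ran from −0.18 to −0.08, Slc22a6 from −0.33 to −0.11 and Dcn from −0.46 to −0.18. The smallest limma adjusted p values of these fits were 0.661, 0.753 and 0.727. Single-array fits whose interval excluded 0 are listed here for Ptgds alone. In males Dcn differed by −0.23 (SE 0.26, interval −0.77 to 0.30, adjusted p = 0.996) and Slc22a6 by −0.20 (SE 0.14). Lum differed by −0.17 (SE 0.11), Ptgds by −0.17 (SE 0.21), Ogn by −0.16 (SE 0.40), Igf2 by −0.09 (SE 0.14), Col1a1 by −0.07 (SE 0.08) and Col1a2 by 0.06 (SE 0.07). With all arrays in the model, each of these differences was smaller than the SD between mice within groups of the same gene and sex.

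The 2 arrays farthest above their own group mean, female replicate 4 (by 0.477 as a mean of the 8 genes) and male replicate 1 (by 0.612), are labelled knockdown. Female control replicate 2 followed (0.432), with an Ogn above that of female knockdown replicate 4. Without those 2 arrays Ogn differed by −0.70 in females (SE 0.34) and −0.46 in males (SE 0.32), and Dcn by −0.46 (SE 0.17) and −0.49 (SE 0.16), with adjusted p values of 0.62 for Dcn in females and 0.991 in males. The intervals of Dcn then excluded 0 in both sexes. In males so did those of Lum (−0.461 to −0.065, limma adjusted p = 0.991) and Slc22a6 (−0.572 to −0.021, adjusted p = 0.999). Without the array farthest above the mean in each of the 4 groups, Ogn differed by −0.41 in females (SE 0.29) and −0.32 in males (SE 0.27), and Dcn by −0.36 (SE 0.17) and −0.45 (SE 0.16), with adjusted p values of 0.844 and 0.975 for Dcn. Both exclusions were chosen after the values were seen, and the first takes the high side out of the knockdown groups alone. The male effect minus the female effect was 0.26 for Ogn (SE 0.58), 0.26 for Ptgds (SE 0.30), 0.19 for Col1a2 (SE 0.10) and −0.23 for Lum (SE 0.16), and between −0.12 and 0.05 for the other 4. For Col1a2 its interval excluded 0 with quantile normalization (0.0064 to 0.418), array weights (0.019 to 0.444) and the replicate block (0.015 to 0.382), without a call. Slc17a7 itself differed by −0.11 in females (SE 0.89) and by 1.17 in males (SE 0.85). Its part in these values was not tested beyond fits with it as a covariate, under which none of the 8 was called. Centred within group it cannot change the differences, so that fit does not bear on its own difference between groups. With it centred within sex, Ogn differed by −0.41 in females and −0.22 in males.

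**Figure D5:**
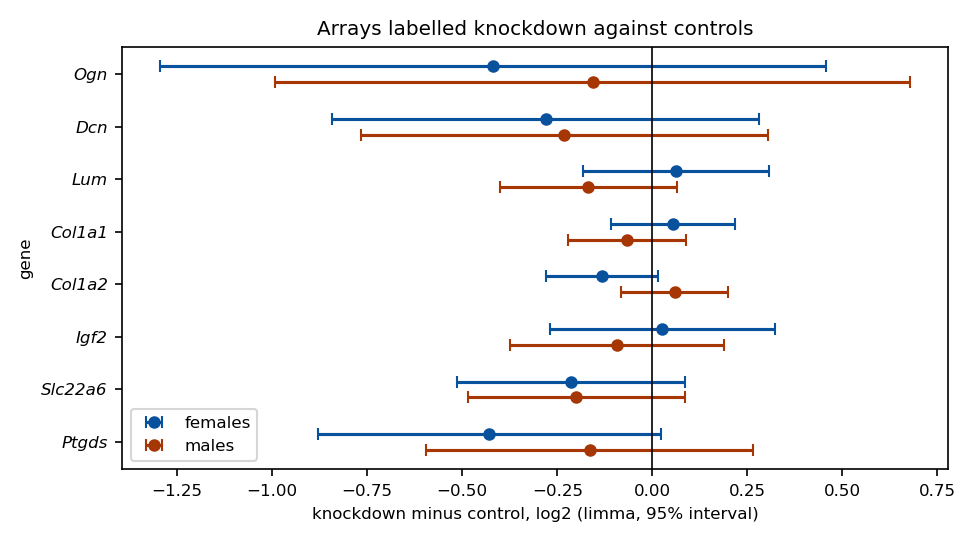
Difference in log2 intensity between arrays labelled knockdown and controls (horizontal axis) for the 8 genes (vertical axis), in females and males, as the limma estimate with its 95% confidence interval. All 16 intervals include 0, and those of Ogn and Dcn are the widest.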

How the data were processed

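Log2 intensities per probe set, as deposited by the authors, were used for 41345 probe sets and 23 arrays. Per the labels, cDNA was made from 150 ng of total RNA with a whole-transcript kit, and Transcriptome Analysis Console is the software named in the submitters' processing notes. The sources used here give no version of it, normalization or build. Scanner files and detection calls were not used, and values were not normalized further.

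Probe sets were named from the array's annotation table: 23521 had 1 symbol, 1814 several and 16010 none. A gene was read from its probe set with the highest mean. Groups were taken from the sample titles. All arrays entered 1 model with a mean per group (limma 3.58.1 in R 4.3.3, default empirical Bayes, two-sided, Benjamini-Hochberg over all probe sets, threshold 0.05), which was tested on simulated data. Correlations and SDs used values centred on each group, within each sex (Python 3.11.15, scipy 1.17.1). Relations to Slc17a7 were tested by 100000 permutations within groups, adjusted over 16. Intervals are 95% confidence intervals. Sequences come from the RefSeq promoter table of GRCm38.p6.

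The members, the 16 gene lists and the tests were chosen with earlier results of these data known. Named genes are the members, Nr1d1, Slc17a7, the 10 genes most like the mean of the members by the lower of the female and male r, for each list the 2 with the highest and the 1 with the lowest such value, and family neighbours of members. Exceptions are marked. Alternatives were quantile normalization, each sex alone, array weights, a robust trend, Slc17a7 as a covariate, a replicate block, a filter on low levels, other statistics and probe sets, and leaving out arrays.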

Additional observations from a re-analysis of the deposited data

Results flagged for a closer look

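Of 40 combinations of a gene and a group of mice, 7 held a sample far from the others. They cover the 8 genes, Slc17a7 and Nr1d1 in the same 4 groups, so the same mice recur. Chance flags about 1 in 20 such combinations, but the 8 genes were chosen for their range between these mice, so nothing is read from the number. Ogn stood at 7.78 in female knockdown replicate 4 (nearest other 6.47) and at 8.38 in male knockdown replicate 1 (nearest 6.89). Dcn stood at 8.30 in the same female array (nearest 7.44) and at 8.60 in the same male array (nearest 7.39). Because the genes move together, these 4 values come from 2 mice and are not separate observations. Col1a1 stood at 7.12 in female control replicate 2, above the next at 6.95, and this array was highest in its group for 7 of the 8 genes. Slc17a7 stood at 5.37 in male knockdown replicate 6, below the next at 8.72, an array in which Ogn was 6.48. Nr1d1 stood at 9.93 in female control replicate 4, below the next at 10.05, a gap of 0.12 within a narrow group.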

How the results depend on the processing

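None of the 8 genes was called in any comparison under any alternative that was run, leaving out each array included. The count of probe sets past the threshold was 0 in each comparison, except in the following cases. It was 1 with array weights for the difference of the sexes. It was 1 for males and for the difference without the array farthest above the mean of each group. With Slc17a7, centred within group, as a covariate it was 1 for males and for the difference. In that fit Slc17a7 is set against its own deviations and leaves no residual, so a call of Slc17a7 itself follows from the model. Leaving out single arrays gave 0 to 1 in each comparison, with 1 in females without female knockdown replicate 1 or male knockdown replicate 4, and 1 in males and for the difference without male control replicate 1 or 5. The cause of the calls in the other cases was not tested. The sample titles do not say whether replicate numbers pair the mice. Same-numbered arrays showed little common deviation (correlations −0.09 to 0.11 in females and −0.10 to 0.14 in males, 0 of 5 and 1 of 6 best with their own number). With the number as a replicate block within sex, counts were 0, Ogn differed by −0.43 in females and −0.16 in males and Ptgds by −0.46 and −0.17.

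No value whose direction turned was called. Igf2 in females was −0.040 with array weights and −0.07 without the 2 arrays farthest above their group mean, both labelled knockdown, and ran from −0.07 to 0.11 over single arrays left out. The difference of the sexes was −0.043 for Slc22a6 with Slc17a7 centred within sex as a covariate, without those 2 arrays −0.052 for Slc22a6 and −0.026 for Dcn, and without the array farthest above the mean of each group −0.112 for Slc22a6 and −0.0895 for Dcn. Over single arrays left out it ran from −0.21 to 0.23 for Dcn, −0.045 to 0.56 for Ogn and −0.087 to 0.13 for Slc22a6.

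For the correlation with Slc17a7, Spearman's rho of Ogn in males was −0.014. Without the 2 farthest arrays, r in females was −0.35 for Ogn, −0.38 for Dcn, −0.0044 for Lum, −0.33 for Col1a1, −0.20 for Igf2 and −0.31 for Ptgds, and in males −0.24 for Ogn, −0.37 for Igf2 and −0.29 for Slc22a6. Within the 8 male arrays above 7 it was −0.36 for Ogn, −0.069 for Col1a2, −0.41 for Igf2 and −0.29 for Slc22a6. Over single arrays left out it ran in females from −0.011 to 0.63 for Col1a1, −0.085 to 0.30 for Dcn, −0.057 to 0.30 for Igf2, −0.0055 to 0.41 for Ogn and −0.080 to 0.46 for Ptgds. In males it ran from −0.31 to 0.13 for Col1a1, −0.26 to 0.10 for Dcn, −0.10 to 0.37 for Igf2, −0.26 to 0.22 for Lum, −0.10 to 0.32 for Ogn and −0.38 to 0.19 for Ptgds.

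The median correlation over pairs of members stayed between 0.67 and 0.76 in females and between 0.65 and 0.79 in males over single arrays left out, and was 0.630 and 0.585 without the array farthest above the mean of each group. The SD of Col1a2 with the mean of its probe sets was 0.095 in females and 0.058 in males. Lum was not tested under the filter on low levels, which it does not reach.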
